A study of Mus musculus with 8 samples.

Results

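The genes described here are the monocyte-attracting CC chemokines Ccl2, Ccl7, Ccl12 and Ccl8 and the chemokine receptor Ccr2, followed in spontaneous mouse mammary tumours treated with imiquimod. They were chosen by symbol, through the accession that the probe table gives for each probe, and they are 5 of the 18211 named genes on the array. Each of the 5 has 1 probe among 24341 probes, so no second probe checks its value. Total RNA of 4 tumours from mice given imiquimod cream for 1 cycle was compared with RNA of 4 tumours from mice given a control cream, on Illumina bead arrays. All mice were of the strain FVB/N-TgN (MMTVneu)-202Mul. In it the neu oncogene is driven by a mammary tumour virus promoter, and every tumour compared here, treated or control, arose in that background. Imiquimod is an agonist of the innate immune receptor TLR7 and was applied to the skin. No age is labelled, and no label ties a tumour to its own mouse. The p-values below therefore describe the scatter among these samples, part of which may be technical.

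Inflammatory monocytes carry Ccr2 on their surface and follow its ligands out of the bone marrow and into inflamed tissue, where many become macrophages. In the mouse Ccl2, Ccl7 and Ccl12 are ligands of Ccr2, and they are made by macrophages, fibroblasts, endothelial cells and many tumour cells after stimulation by cytokines or innate receptors. Mouse Ccl8 is a relative of these ligands that acts through Ccr8. In mammary tumours the Ccl2 and Ccr2 axis is known for bringing in monocytes that give rise to tumour macrophages.

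The values are log2 signals whose array medians lay between 6.816 and 6.824. The highest value was 15.07 on each imiquimod array and 14.86 on each control array, so a step applied to each group apart cannot be told apart from treatment. The mean correlation of an array with the others of its group was at least 0.968 for imiquimod and at least 0.964 for control. The tissue label was borne by part of the luminal epithelial markers. The mean log2 level of the 8 tested was 8.71 to 8.85 in imiquimod tumours and 8.76 to 8.84 in control tumours. It was carried by Krt18, Krt8 and Elf5 (control means 11.87, 11.26 and 10.375), with Cdh1 and Erbb2 at 8.31 and 8.17. Epcam, Esr1 and Foxa1 lay near the array medians (control means 6.82, 6.87 and 6.71), and Krt19 and Erbb3 were too dim to be tested. Imiquimod and control were compared gene by gene with limma, with Benjamini-Hochberg adjustment over 13142 genes and unnamed probes, and "rose" or "fell" is used only for an adjusted p under 0.05. At that threshold 280 rose (2.13% of those tested) and 289 fell (2.2%), 4.33% in all. Differences are imiquimod minus control on the log2 scale throughout. In bulk RNA of this kind, a change in the number of cells of a type and a change in RNA per cell cannot be told apart.

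Of the 5 genes, the 4 ligands rose and the receptor did not pass, against 4.33% of all units called in either direction and 2.13% called higher. Ccl7 rose by a log2 difference of 3.71 and Ccl12 by 3.38, which ranked 2 and 6 among all differences tested. Ccl2 rose by 1.60 and Ccl8 by 1.61. Ccr2 differed by 0.03, on a probe whose mean over the 8 tumours was 0.03 above the limit under which probes were left out. The calls of Ccl7, Ccl12 and Ccl2 held without any 1 tumour, whereas that of Ccl8 was lost without any tumour other than imiquimod 1.

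**Figure D1:**
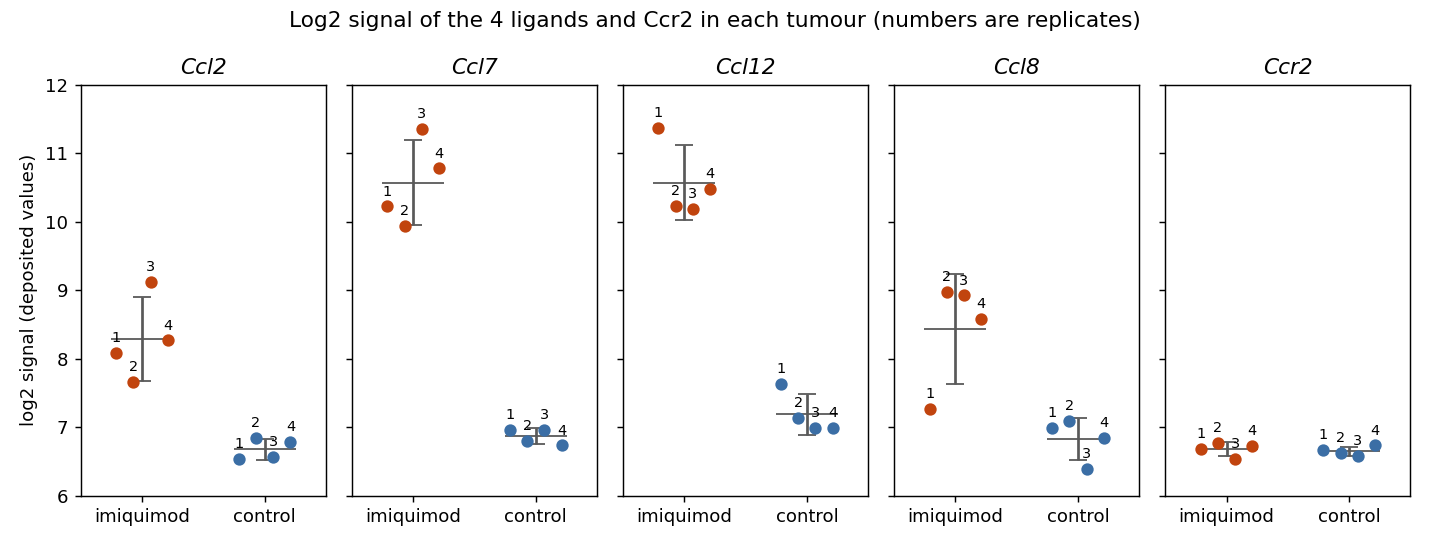
Log2 signal (vertical axis, deposited values) of each gene in each imiquimod (left, red) and control (right, blue) tumour; the number beside a point is the replicate, the bar the mean and the whisker the SD of 4 tumours. The Ccl7 and Ccl12 values of all imiquimod tumours lie at least 2.55 log2 units above the highest control, Ccl8 in imiquimod 1 lies 0.17 above it, and the Ccr2 groups overlap.

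Ccl7, which attracts monocytes through Ccr2 and also binds other CC receptors, had log2 signals of 10.22, 9.94, 11.36 and 10.78 in imiquimod tumours 1 to 4, against 6.96, 6.80, 6.96 and 6.73 in control tumours 1 to 4. All imiquimod values were higher than all control values, and the gap between the groups was 2.97, more than either group's own range. The means were 10.57 ± 0.63 with imiquimod and 6.87 ± 0.12 in control (SD, n = 4 each). The log2 difference was 3.71 (SE 0.27, 95% interval 3.10 to 4.32, limma adjusted p = 0.000816), which is a 13.1-fold ratio of signals. No other of the 13142 units had a smaller p, and with any 1 tumour left out its limma adjusted p was at most 0.00656.

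Ccl12, a rodent ligand of Ccr2, had log2 signals of 11.37, 10.24, 10.19 and 10.48 in imiquimod tumours 1 to 4, against 7.63, 7.14, 6.99 and 6.99 in control tumours 1 to 4. The groups were 2.55 apart, with imiquimod 1 highest among the treated tumours and control 1 highest among the controls. Means were 10.57 ± 0.55 with imiquimod and 7.19 ± 0.31 in control (SD, n = 4 each), a log2 difference of 3.38 (SE 0.26, 95% interval 2.79 to 3.98, limma adjusted p = 0.000816). This corresponds to a 10.4-fold ratio of signals.

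Ccl2, the best known ligand of Ccr2, had log2 signals of 8.08, 7.66, 9.12 and 8.27 in imiquimod tumours 1 to 4, against 6.53, 6.84, 6.56 and 6.78 in control tumours 1 to 4. The groups did not overlap and stood 0.82 apart, with imiquimod 3 highest and imiquimod 2 lowest of the treated tumours. Means were 8.28 ± 0.61 with imiquimod and 6.68 ± 0.15 in control (SD, n = 4 each). The log2 difference of 1.60 (SE 0.27, 95% interval 1.00 to 2.20, limma adjusted p = 0.0144) is a 3.04-fold ratio of signals. All control values of Ccl2 were near the array medians, and whether a background remains in the deposited signals is unknown. If it does, the ratios of these genes understate their change.

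Ccl8 had log2 signals of 7.26, 8.98, 8.92 and 8.58 in imiquimod tumours 1 to 4, against 6.99, 7.09, 6.39 and 6.84 in control tumours 1 to 4. Imiquimod 1 stood only 0.17 above the highest control, while the other 3 imiquimod tumours lay at 8.58 to 8.98. Means were 8.44 ± 0.80 with imiquimod and 6.83 ± 0.31 in control (SD, n = 4 each), a log2 difference of 1.61 (SE 0.36, 95% interval 0.80 to 2.42, limma adjusted p = 0.0415). Without imiquimod 1 the difference was 2.00 (limma adjusted p = 0.00236). With imiquimod 2, 3 or 4 or any control left out it was 1.43 to 1.70 and did not pass (limma adjusted p = 0.0577 to 0.107).

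Ccr2 had log2 signals of 6.68, 6.77, 6.53 and 6.73 in imiquimod tumours 1 to 4, against 6.66, 6.63, 6.58 and 6.73 in control tumours 1 to 4. The groups overlapped, and the difference of 0.03 (SE 0.07, 95% interval -0.14 to 0.19, limma adjusted p = 0.884) did not pass. Its values were below the array medians in every tumour. At this brightness a difference in the receptor's transcript was not detectable on this probe, which does not show that the transcript was absent or did not change. Detection calls were not used here.

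All imiquimod tumours were above all control tumours for 4 of these 5 genes, with gaps of 0.17 to 2.97, as for 5.52% of all units tested (12.6% did not overlap in either direction). For each of those 4 an exact permutation test over the tumours gave p = 0.0286 (two-sided), the smallest that 4 against 4 tumours allow. Whether a probe of one of these related chemokines also reads another was not tested, since no probe sequences were used here.

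The log2 differences of the ligands were not of equal size. The difference between 2 genes' log2 differences was tested for all 10 pairs with exact permutation tests over the tumours (two-sided), adjusted over the 10 pairs. Ccl2 minus Ccl7 was -2.11 (SE 0.15, exact p = 0.0286, adjusted p = 0.0408), Ccl7 having the larger difference. Ccl7 exceeded Ccl8 by 2.10 (SE 0.46) and Ccl12 exceeded Ccl8 by 1.77 (SE 0.69), both with the same exact p and adjusted p. Ccl2 minus Ccl12 was -1.78, which did not pass (SE 0.51, exact p = 0.0571, adjusted p = 0.0714). Ccl7 minus Ccl12 was 0.33 (SE 0.51, exact p = 0.571, adjusted p = 0.635, -0.82 to 1.49 over the imiquimod tumours). Ccl2 minus Ccl8 was -0.01 (SE 0.47, exact p = 1, -1.17 to 0.97 over the imiquimod tumours). These 2 pairs were not told apart, and with such errors they need not have risen equally. The 4 pairs with Ccr2 are not read here, since on so dim a probe they restate each ligand's own difference. Those 4 pairs also had an exact p of 0.0286, which lowers the adjusted p of the ligand pairs. Without them in the adjustment no ligand pair would pass, so the unequal sizes are a description. A probe near the background shows less change than a bright one, so such differences between probes need not equal differences between transcripts.

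Within the imiquimod group the 4 ligands did not share 1 order of tumours. Ccl7 and Ccl2 had the same order of tumours, with imiquimod 3 highest, then 4, 1 and 2. Taken as log2 signal minus the control mean, Ccl7 was 3.36, 3.07, 4.49 and 3.91 in imiquimod tumours 1 to 4, and Ccl2 was 1.40, 0.98, 2.44 and 1.59. The distance of Ccl2 from Ccl7 was thus -1.96, -2.09, -2.05 and -2.33, steadier than either gene alone. Ccl12 had another order, with imiquimod 1 at 4.18 above the control mean and tumours 2, 3 and 4 at 3.05, 3.00 and 3.30. Ccl8 ran the other way, with imiquimod 1 at 0.44 and tumours 2, 3 and 4 at 2.15, 2.10 and 1.75. The distance of Ccl12 above Ccl8 was therefore 3.75 in imiquimod 1, and 0.90 to 1.54 in the other 3 treated tumours. These are descriptions of 4 tumours, with no test.

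**Figure D2:**
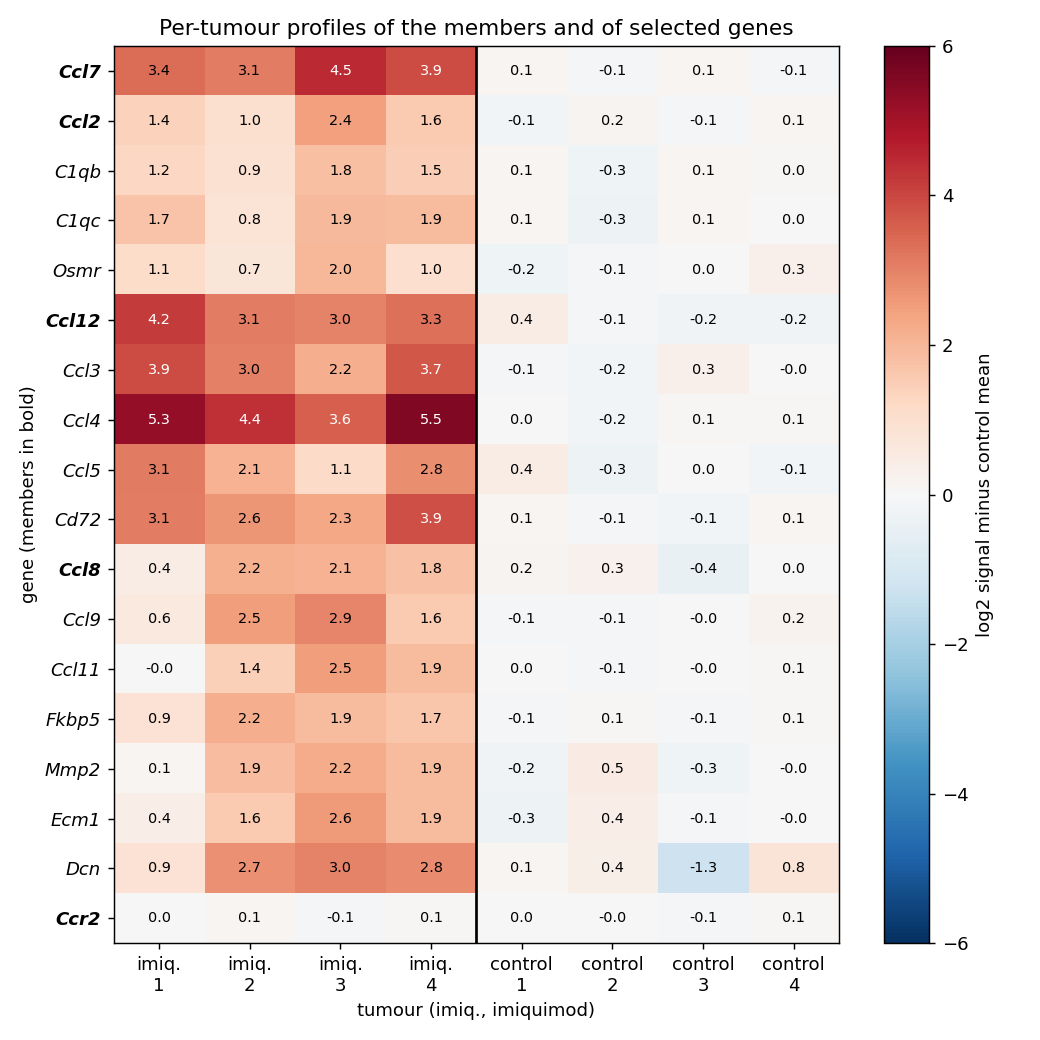
Log2 signal minus the mean of the 4 control tumours (colour and printed value) for the 5 genes in bold and for other genes named in the text, with imiquimod tumours 1 to 4 left of the line and control tumours 1 to 4 right of it. Ccl7 and Ccl2 are highest in imiquimod 3, Ccl12 with Ccl3, Ccl4 and Ccl5 is high in imiquimod 1, and Ccl8 with Ccl9, Ccl11, Mmp2 and Dcn is lowest there.

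The genes with the most similar profiles were found by the root mean square difference over the 8 tumours, each gene taken as log2 signal minus its control mean, among 13001 other genes. For Ccl2 they were the complement subunits C1qb and C1qc, which macrophages make, and Osmr, the receptor of oncostatin M, at 0.30 to 0.32 log2 units. Their log2 differences were 1.36 for C1qb, 1.59 for C1qc and 1.21 for Osmr, and all 3 rose, Osmr with a call lost when any control or imiquimod 4 was left out (adjusted p up to 0.0859). For Ccl7 they were the formyl peptide receptor Fpr2, the IgG receptor Fcgr4 and the matrix protein Tgfbi, at 0.50 to 0.61, with log2 differences of 3.28, 3.43 and 3.00. For Ccl12 they were the chemokine Ccl3 at 0.44, Fpr2 at 0.54 and Cd72, a B cell coreceptor, at 0.55. Ccl3 and Cd72 shared with Ccl12 that imiquimod 3 was their lowest treated tumour.

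The nearest profiles to Ccl8 belonged to Mmp2, a matrix metalloproteinase of fibroblasts, Fkbp5, a glucocorticoid-induced chaperone, and Ecm1, a matrix protein, at 0.23 to 0.34 log2 units. Fkbp5 rose by 1.65 (SE 0.24, adjusted p = 0.00942). Mmp2 differed by 1.52 (adjusted p = 0.0774) and Ecm1 by 1.61 (adjusted p = 0.0567), which did not pass. In imiquimod 1 these 3 genes stood 0.12, 0.85 and 0.39 above the control mean, and in tumours 2 to 4 they stood at 1.59 to 2.55. For Ccr2 the nearest profiles were those of Alg12, Mdm4 and Foxn4, which differed by 0.02 to 0.04 between the groups and carry the flatness of a dim probe.

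On chromosome 11 the protein-coding genes run in the order Ccl2, Ccl7, Ccl11, Ccl12, Ccl8 and Ccl1 in the RefSeq annotation of GRCm38.p6, so all 4 ligands lie in 1 cluster with Ccl11 and Ccl1. Ccl11, an eosinophil attractant between Ccl7 and Ccl12, had log2 signals of 6.82, 8.27, 9.35 and 8.76 in imiquimod tumours 1 to 4, against 6.90, 6.74, 6.86 and 6.94 in control tumours 1 to 4. Its imiquimod 1 value lay among the controls and the other 3 lay above them, and the log2 difference of 1.44 (SE 0.45) did not pass (adjusted p = 0.11). Ccl1 at the end of the cluster had a difference of -0.02 (SE 0.07, adjusted p = 0.887). On chromosome 9 Ccr1, Ccr1l1, Ccr3 and Ccr2 lie next to each other, and they had differences of -0.04, -0.10, -0.13 and 0.03, none of which passed. Ccl11, Ccl1, Ccr1 and Ccr1l1 were added after the values were seen.

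**Figure D3:**
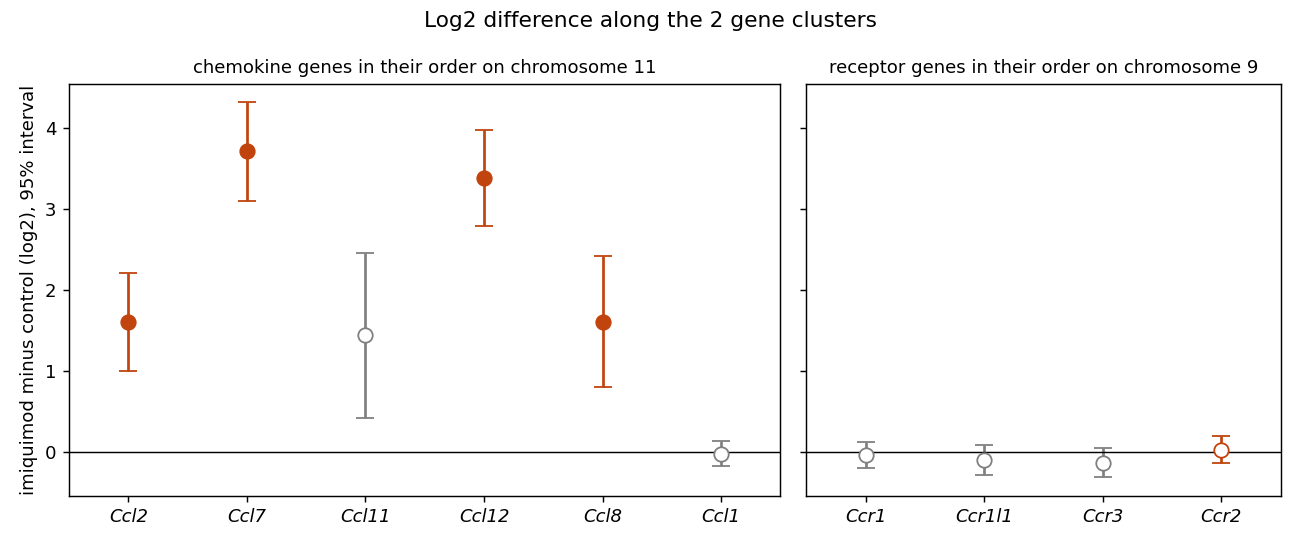
Log2 difference, imiquimod minus control, with its 95% interval (vertical axis) for chemokine genes in their order on chromosome 11 and receptor genes in their order on chromosome 9; red points are the 5 genes of this report, grey points their neighbours, and filled points passed the adjusted p of 0.05. Ccl7 (3.71) and Ccl12 (3.38) stand above Ccl2 (1.60), Ccl11 (1.44) and Ccl8 (1.61), and Ccl1 and all 4 receptors lie near 0.

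Of the 5 genes, the RefSeq promoter table of GRCm38.p6 held Ccl12, Ccl8 and Ccr2. The 250 bases before the start of Ccl12 (chr11:82101595-82101844, plus strand) and of Ccl8 (chr11:82114935-82115184, plus strand) are printed because these are the 2 ligands that diverge most between imiquimod tumours. Capitals mark the 3 stretches of 8 identical bases that a global alignment of the pair holds.
Ccl12: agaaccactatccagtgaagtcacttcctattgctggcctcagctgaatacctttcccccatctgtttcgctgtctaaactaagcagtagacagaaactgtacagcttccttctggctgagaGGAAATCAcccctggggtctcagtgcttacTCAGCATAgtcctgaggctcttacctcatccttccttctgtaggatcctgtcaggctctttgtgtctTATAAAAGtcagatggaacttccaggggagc
Ccl8: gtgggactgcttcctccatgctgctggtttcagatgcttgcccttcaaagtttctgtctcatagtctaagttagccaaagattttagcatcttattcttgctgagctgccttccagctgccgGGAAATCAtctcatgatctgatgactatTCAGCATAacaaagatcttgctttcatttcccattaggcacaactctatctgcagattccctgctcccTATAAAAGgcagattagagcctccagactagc

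The shared stretch GGAAATCA begins 128 bases before the start in both genes, TCAGCATA begins 98 bases before it in Ccl12 and 100 in Ccl8, and TATAAAAG begins 31 and 32 bases before it. The alignment paired 230 bases, of which 150 (65.2%) were identical. Short motifs were searched on both strands, and the share of all 32851 promoter stretches of 250 bases that hold each is given for scale. TATAAA (12.4% of stretches) and GGAAA (55.6%), which can be part of a kappaB or interferon motif, were found in both genes. The loose kappaB form, GGG followed after any 5 bases by CC (45.8%), the interferon element, GAAA followed after any 2 bases by GAAA (2.98%), the STAT form TTCNNNGAA (7.02%), the AP-1 form TGANTCA (6.75%) and the C/EBP form TTNNGNAA (36.8%) were found in neither window. A missing match says only that these letters are not in these 250 bases.

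Of 14 other CC chemokines tested, 4 rose and none fell (median log2 difference 0.12, against -0.02 over all 13142 units). These were Ccl4 by 4.70, Ccl3 by 3.21, Ccl5 by 2.28 and Ccl9 by 1.90, of which Ccl3, Ccl4 and Ccl5 attract monocytes and T cells. Ccl3, Ccl4 and Ccl5 were lowest in imiquimod 3 among the treated tumours, at 8.87, 10.51 and 8.01 log2 units. Ccl9, a ligand of Ccr1, had the tumour pattern of Ccl8, with 7.33, 9.28, 9.67 and 8.32 in imiquimod tumours 1 to 4, against 6.62, 6.69, 6.73 and 6.98 in control tumours 1 to 4. Like Ccl8, it lost its call without any tumour other than imiquimod 1 (adjusted p up to 0.112). Ccl6 differed by 0.76 (adjusted p = 0.188), and its lowest treated tumour was again imiquimod 1, at 6.89, where tumours 2 to 4 lay at 7.29 to 8.49. Without imiquimod 1, 6 of the 14 passed, Ccl11 (1.94, adjusted p = 0.00432) and Ccl6 (1.02, adjusted p = 0.046) being added.

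None of 10 other receptors and decoys of CC chemokines passed in the limma fit, and 2 of them, Ccrl2 and Ackr1, were higher at an unadjusted p under 0.05. Of all 13142 units, 9.21% were higher and 11.3% lower at that unadjusted threshold. Ccrl2, an atypical receptor that presents chemerin, differed by 0.25 (adjusted p = 0.13) and the vascular chemokine scavenger Ackr1 by 0.36 (adjusted p = 0.176). The remaining 8 ranged from -0.13 (Ccr3) to 0.11 (Ccr8, the receptor of mouse Ccl8). Without imiquimod 1, Ackr1 passed (adjusted p = 0.0452).

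Of 16 genes that carry the signal of Ccr2 and chemotaxis, 4 rose and none fell (median 0.13). They were the exchange factor Vav1 by 1.57, the leukocyte GTPase Rac2 by 1.01, the actin regulator Coro1a by 1.18 and the receptor adaptor Arrb2 by 0.58. These 4 were among 6 of the 16 genes that were higher without overlap between groups, against 5.52% of all units. Vav1 kept its call with any 1 tumour left out. Rac2 lost it when control 1, 3 or 4 was left out (adjusted p up to 0.0553), and Arrb2 and Coro1a when any control, imiquimod 3 or imiquimod 4 was (adjusted p up to 0.085). The count of 4 was 1 to 2 without any 1 control or without imiquimod 3, and 2 without imiquimod 3 and 4 together.

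Of 25 genes that feed the transcription of CC chemokines, 9 rose and none fell (median 0.37), and 17 were higher at an unadjusted p under 0.05, against 9.21% of all units. The interferon regulator Irf7 rose by 2.63 and Irf5, which acts downstream of TLR7, by 0.58, both with any 1 tumour left out. Irf7 was 11.35, 10.98, 10.45 and 10.54 in imiquimod tumours 1 to 4, against 9.58, 7.49, 7.64 and 8.09 in control tumours 1 to 4. Its highest control was control 1, which was also the highest control of Ccl12. The cytokine Tnf rose by 0.56, the interferon gamma receptor chain Ifngr1 by 0.64, and Stat2, Stat3, Irf1 and Relb by 0.39 to 0.88. Those 6 each lost the call in at least 3 of the 8 leave-one-out fits (adjusted p up to 0.109). The count of 9 was 2 to 5 without any 1 tumour other than imiquimod 1, where it stayed at 9, and 0 without imiquimod 3 and 4 together (limma).

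Of 11 leukocyte adhesion genes, 2 rose in every leave-one-out fit. Icam1, a vessel ligand for leukocyte integrins, rose by 1.23 (SE 0.10), and Selplg, the selectin ligand of leukocytes, by 1.48 (SE 0.22). Vcam1 differed by 0.83 (adjusted p = 0.162), with 8.31, 8.20, 9.64 and 9.06 in imiquimod tumours 1 to 4. Of 8 growth factors and receptors of monocytes, Csf2ra, a receptor chain for GM-CSF, rose by 0.71. That call did not hold when control 1, control 2, imiquimod 2 or imiquimod 4 was left out (adjusted p up to 0.0729), nor without imiquimod 3 and 4 together (adjusted p = 0.164). Csf1 differed by 0.36 (adjusted p = 0.144), Il34 by 0.13 (adjusted p = 0.378) and the receptor Csf1r by 0.06.

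**Figure D4:**
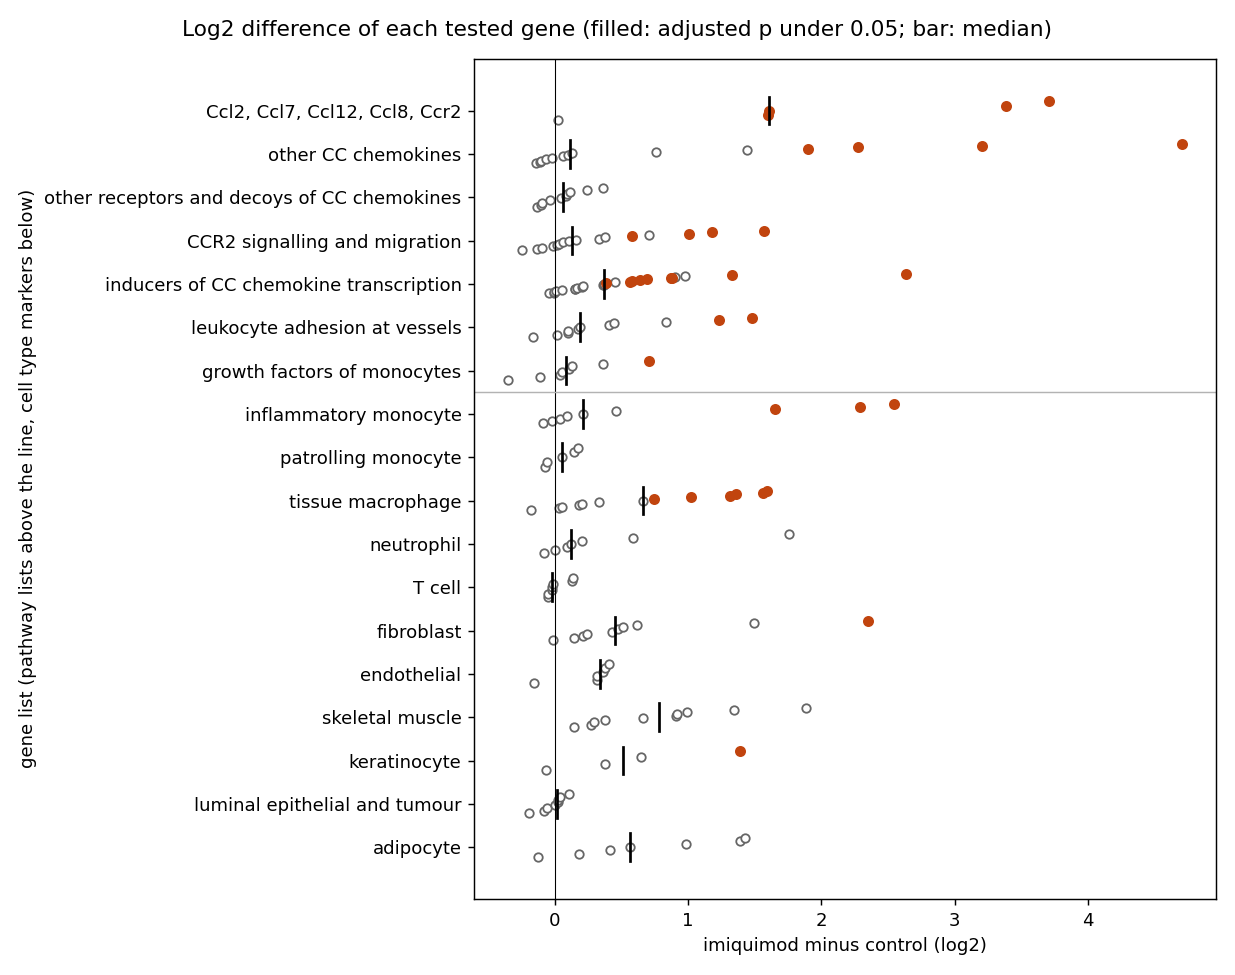
Log2 difference, imiquimod minus control (horizontal axis), of each tested gene of the 5 genes (top row), the 6 pathway lists and the 11 lists of cell type markers; filled points passed the adjusted p of 0.05 and the bar is the median of the row. The 4 ligands lie at 1.60 to 3.71, the receptor list lies between -0.13 and 0.36, and filled points among the markers are mainly those of monocytes and macrophages.

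Markers of the cells that Ccr2 marks, and of those they become, were higher in part. Of 9 inflammatory monocyte markers, 3 rose and none fell (median 0.22), namely the endotoxin co-receptor Cd14 by 2.55, Ly6c1 by 2.29 and Plac8 by 1.65. Ly6c1 is near-identical to Ly6c2 and its probe may not tell them apart, and Plac8 lost its call without any tumour other than imiquimod 1 (adjusted p up to 0.0816). The mean log2 level of the list was 7.51, 7.86, 8.24 and 7.92 in imiquimod tumours 1 to 4 and 7.05 to 7.11 in control tumours. Ms4a4c, a further marker of these cells, was too dim to be tested. With imiquimod 3 and 4 left out together, 1 of the 9 passed, and Ly6c1 (1.81, limma adjusted p = 0.0666) and Plac8 (1.05, limma adjusted p = 0.153) did not. None of 5 patrolling monocyte markers passed in the limma fit (none at an unadjusted p under 0.05 either).

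Of 13 tissue macrophage markers, 6 rose and none fell (median 0.66), among them C1qa by 1.32, Aif1 by 1.56 and Adgre1 by 1.02. Fcgr1 rose by 0.75, a call lost with any control, imiquimod 3 or imiquimod 4 left out (adjusted p up to 0.0766). The other 7 did not pass and ranged from -0.18 (Trem2) to 0.66 (Cd68), with Csf1r at 0.06 and Mertk at 0.18. Cd163 was too dim to be tested. The mean level of the list was 8.21, 8.15, 8.89 and 8.59 in imiquimod tumours 1 to 4, against 7.76, 7.62, 7.97 and 7.76 in control tumours 1 to 4. The treated tumours ran 3, 4, 1, 2 from high to low, as they did for Ccl2 and Ccl7. The mean level of the skeletal muscle markers, given below, had that order too, so the order is not particular to macrophage markers. With imiquimod 3 and 4 left out together, 2 of the 13 macrophage markers passed. The part of macrophage numbers in the rise of the ligands was not tested.

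The mean levels of several other marker lists differed between the imiquimod tumours. The mean log2 level of the 10 fibroblast markers was 7.02, 7.72, 8.10 and 7.70 in imiquimod tumours 1 to 4 and 6.81 to 7.13 in control tumours. Imiquimod 1 therefore lay within the controls, as Ccl11 did and as Ccl8 nearly did. The matrix proteoglycan Dcn was 8.44 in imiquimod 1 and 10.29 to 10.54 in the other 3, and its rise of 2.35 lost its call without any tumour other than imiquimod 1 (adjusted p up to 0.122). Without imiquimod 1, 4 of the 10 fibroblast markers passed, against 1 with all tumours and none without imiquimod 3 and 4 together. Keratinocyte markers, of which 4 were tested, had a mean of 8.33 in imiquimod 1, 7.11 to 7.43 in imiquimod 2 to 4 and 6.85 to 7.06 in control tumours. Imiquimod 1 was also the tumour with the highest Ccl12. Of these 4, Krt14 rose by 1.39, a call lost with any control, imiquimod 1 or imiquimod 3 left out (adjusted p up to 0.0949).

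Skeletal muscle markers, of which 10 were tested and none passed (1 higher at an unadjusted p under 0.05), had a mean of 8.68 in imiquimod 3 and 8.28 in imiquimod 4, against 6.82 and 6.73 in imiquimod 1 and 2 and 6.59 to 7.30 in control tumours. With imiquimod 3 and 4 left out together, Ccl7, Ccl12 and Ccl2 still passed, with differences of 3.22, 3.62 and 1.19 (limma adjusted p = 0.000186, 0.00963 and 0.0259). Ccl8 did not pass in that fit, with 1.29 (limma adjusted p = 0.305). Adipocyte markers had means of 8.44 and 8.29 in imiquimod 2 and 3, 7.20 and 7.22 in imiquimod 1 and 4, and 6.86 to 7.36 in control tumours. None of those 7 markers passed in the limma fit (2 higher at an unadjusted p under 0.05). Neutrophil markers had means of 6.90 to 7.65 in imiquimod tumours, highest in imiquimod 3, and 6.79 to 6.82 in control tumours, and none of 7 passed (S100a8 differed by 1.76, adjusted p = 0.0654). None of 7 T cell, 6 endothelial or 8 luminal epithelial markers passed in the limma fit, where 1, Krt18 at -0.20, had an unadjusted p under 0.05. The part of these cell types in the chemokine values was not tested.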

How the data were processed

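Total RNA was labelled as biotin cRNA with Illumina TotalPrep, per the labels' protocols, and hybridised to bead arrays, 1 per tumour. The authors deposited log2 values per probe, and nearly equal array medians (6.816 to 6.824) show that they were scaled between arrays. The submitters' processing notes name affy with no version, and the background correction is not given in the sources used here. The deposited table of non-normalized values has 16 columns of per-sample values whose names match no label, and they were not used.

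The log2 values were used as deposited. Of 24341 probes the dimmest 33.3% by mean over all 8 arrays were left out (limit 6.64), which kept 16227, and the probe with the highest mean stood for a gene. Probes were named through RefSeq by accession (20038), symbol (1620) or synonym (1736). A further 692 kept the file's own symbol and 255 had no name. Imiquimod and control (4 tumours each) were compared with limma 3.58.1 in R 4.3.3 (lmFit, eBayes, two-sided, Benjamini-Hochberg over 13142 units), and every adjusted p for a single gene comes from it. Exact permutation tests used scipy 1.17.1. On simulated data for this comparison over 13142 units, the fit recovered 60% of genes changed by 0.5 log2 units, 86% at 1, 98% at 2 and 100% at 3, with 10 false among 182 calls.

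The 5 genes and all lists were chosen with earlier results of these data known. By rule, the text names the 5 genes, the 3 genes of smallest p in each of 17 lists and the 3 most similar profiles per gene, and other genes were named after their values were seen. Alternatives were the filter, repeated or normexp (offset 50) normalization, an intensity trend, array weights, probe averaging, a replicate block, and leaving out single tumours or imiquimod 3 and 4 together. Bead-array precision is limited by the number of arrays, and no detection p-values were used.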

Additional observations from a re-analysis of the deposited data

Results flagged for a closer look

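In 11 of the 170 groups of 4 tumours examined, 1 tumour stood apart by Dixon's test at the 95% level, and chance gives about 1 in 20. None of the 5 genes was among them. Imiquimod 1 had the lowest Dcn (8.44 log2 units, 10.29 to 10.54 in the other imiquimod tumours), the highest Krt10 (8.79, 7.28 to 7.36 in the others) and the highest Lor (9.28, 6.41 to 6.73 in the others). Imiquimod 2 had the lowest Aif1 (9.01, 9.91 to 9.95 in the others). Imiquimod 3 had the lowest Alg12 (6.62, 6.86 to 6.87 in the others). Fcgr4 was highest in imiquimod 4 (11.66, 10.14 to 10.36 in the others). Among the control tumours, Ly6c1 was highest in control 1 (7.775, 7.44 to 7.46 in the others) and Mb lowest there (7.002, 7.21 to 7.23 in the others). Control 2 had the highest Lpl (7.68, 7.53 to 7.55 in the others) and the lowest Vav1 (6.92, 7.15 to 7.18 in the others). Fpr2 was lowest in control 4 (6.25, 6.56 to 6.62 in the others).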

How the results depend on the processing

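Ccl7, Ccl12 and Ccl2 kept direction and call under all 18 alternatives, with log2 differences of 3.22 to 3.95, 3.12 to 3.62 and 1.19 to 1.81. Ccl8 kept its direction but lost its call under 9 of 18, with 1.43 to 2.00 when single tumours were left out and 1.29 (limma adjusted p = 0.305) without imiquimod 3 and 4 together. Ccr2 did not pass in any of 17, with -0.0037 to 0.0757 when single tumours were left out, and it was too dim to be tested with the lower 50% of probes left out. Without single tumours, 145 to 454 genes were higher and 123 to 457 lower, and 9 to 23 genes of the 6 pathway lists rose, against 280, 289 and 20 with all tumours. Without imiquimod 3 and 4 together these were 71, 41 and 7, on fewer tumours. With 1 tumour fewer the exact test cannot give a p under 0.05, so no pair of the 5 genes could pass whatever its values (smallest adjusted p 0.0714). Those fits therefore do not show whether the pair differences hold.

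The labels do not say whether the replicate numbers pair the tumours. Same-numbered tumours deviated with correlations of -0.0212 to 0.0353, and only imiquimod 1 correlated best with the control of its own number. These values show no shared deviation, but they cannot exclude a pairing. With the replicate number as a block, Ccl8 was 1.61 (limma adjusted p = 0.0671), 249 genes were higher and 252 lower, and the other 4 genes kept their side of the threshold.

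Over 80 other named genes, 1276 of 1430 alternatives kept the call, 127 lost it, 17 gained it and 10 turned the direction, none of a called value. When single tumours were left out, 6 of these genes ranged across 0: Ccl1 at -0.0622 to 0.009, Ccr1 at -0.0803 to 0.0019, Csf1r at -0.0277 to 0.1223, Foxn4 at -0.018 to 0.062, Lor at -0.0233 to 0.9354 and Mdm4 at -0.0093 to 0.087. Without imiquimod 3 and 4 together, Cd4 was 0.0283 and Tnnt3 -0.1014. The cause was not tested. Probes near the background limit what can be said of Ccr2 and the other receptors.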
